A study of Mus musculus with 32 samples.

Results

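The liver degrades most amino acids that are not used for protein, and its urea cycle turns the nitrogen released into urea. Transaminases pass amino groups to common acceptors. Dedicated routes then open the carbon skeletons of tyrosine, tryptophan, histidine, serine, threonine, lysine, proline and the branched chain amino acids. In the liver these routes are concentrated in hepatocytes, answer to protein intake, glucagon and glucocorticoids, and supply carbon for glucose synthesis and, through the kynurenine route, for NAD+.

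Transcripts of this system were described here for 38 genes chosen by name, of 21227 genes tested. They comprised 7 genes of the urea cycle, 4 transaminases, 4 genes of tyrosine breakdown and 6 of tryptophan breakdown. Another 6 acted on serine, threonine, lysine, glutamine or proline, 4 on histidine and 5 on branched chain amino acids, and 2 encoded amino acid transporters. All 38 were represented on the array, by 44 probes, and the brightest probe of each gene was used. Every used probe was well above background on all 32 arrays, so no member owed its place to a group in which it was high.

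The data were whole-liver RNA levels from male C57/BL6 mice on 1-colour microarrays, with 8 groups of 4 arrays. Mice were 8 weeks old at the start, and by the time of partial hepatectomy (PH) had eaten chow (C) or a methionine and choline deficient diet (MCD) for 3 weeks. Chow-fed mice of the group C+Fc-GLP-1, and MCD-fed mice of M+Fc-GLP-1, were also injected every 2 days for the last 2 weeks, while C and MCD mice received saline. The same 4 groups were sampled again 2 weeks after removal of 70% of the liver, with diet and injections continued. The study reports that survival after PH was higher with Fc-GLP-1 than without it, on chow and on MCD. Livers after PH therefore came from survivors, whose share differed between the groups. The study's methods call the drug an Fc fusion of GLP-1 given at 10 nmol/kg, and the source names of all treated samples say Fc-GLP-1. Those of C+Fc-GLP-1 after PH add treatment with a dual agonist. Other sample labels name an agent that acts on both GLP1R and GCGR (the receptors of GLP-1 and glucagon), at 4.4 mg/kg daily. The drug is called Fc-GLP-1 below, as in the study, and the identity of the agent could not be settled. The MCD diet removes an essential amino acid and a methyl donor together, and bulk RNA cannot tell fewer hepatocytes from less RNA per hepatocyte.

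C and MCD before PH shared 1 slide, the 2 treated groups shared 1 slide at each time, and C and MCD after PH lay on 1 slide each. The diet comparisons before PH and under Fc-GLP-1 were therefore made within a slide, but slide and group cannot be told apart in MCD against C after PH, in every comparison of Fc-GLP-1 with saline and in every comparison over time. The 75th percentile of intensity ran from 180 to 648 and the share of probes well above background from 36.3% to 69.2%. Of 15 hepatocyte markers, 13 were well above background on all 32 arrays and none was below it in any group. On 3 arrays taken after PH most members were low together: C replicate 1 had 35 of 38 below their group mean (median shift -0.61 log2 units), C+Fc-GLP-1 replicate 1 had 37 (-0.53) and M+Fc-GLP-1 replicate 4 had 37 (-0.39). Hepatocyte markers were also low there, with median shifts of -0.31, -0.27 and -0.49. Calls in the comparisons that use these arrays are also given without all 3 of them, a setting chosen after seeing the data. The 3 arrays were picked by the members' own values, so calls gained without them are not added support. M+Fc-GLP-1 replicate 1 after PH, where the median member shift was 0.38, was kept.

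**Figure D1:**
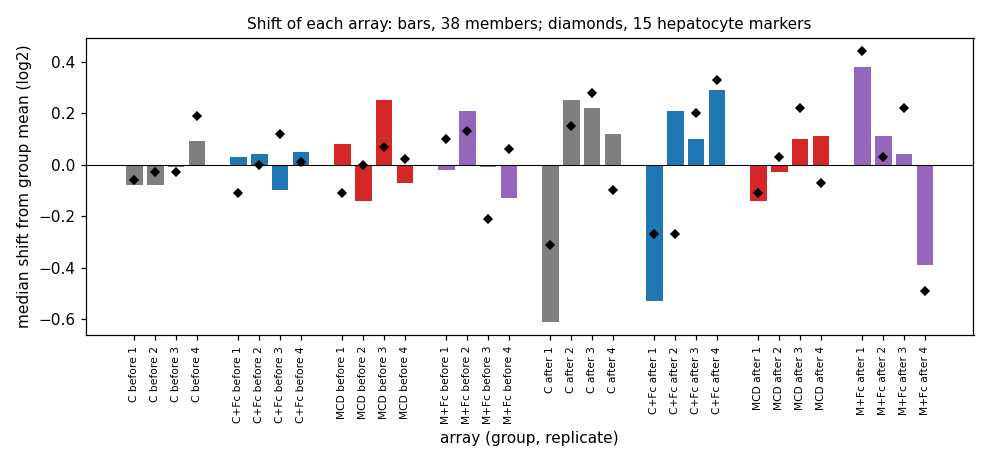
Shift of each of the 32 arrays from its group mean in log2 units, as the median over the 38 members (bars) and over 15 hepatocyte markers (diamonds), by group. C replicate 1, C+Fc-GLP-1 replicate 1 and M+Fc-GLP-1 replicate 4 after PH stand lowest, with member medians of -0.61, -0.53 and -0.39.

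Levels are log2 intensities minus the 75th percentile of the same array, so a level of 0 is that percentile and each unit of difference is a factor of 2; levels of different genes come from different probes and are not compared. Differences are given ± SE with the Benjamini-Hochberg adjusted p of limma over all 21227 genes, and called below 0.05. Before PH, 12 of the 38 members were lower in MCD than in C and none was higher, where 13.7% of all genes were called lower and 12.1% higher. The 12 were Otc, Ass1, Asl, Afmid, Kmo, Haao, Sds, Aass, Hal, Uroc1, Amdhd1 and Ftcd. The median difference over the members was -0.46, against -0.07 over all genes, and 32 of 38 were negative. All 15 hepatocyte markers were negative too, with a median of -0.40, and Apoa1, Apoa2 and Vtn were called lower. Their summed level on a linear scale, in multiples of the array percentile, was 8300 to 9810 in MCD and 12400 to 14600 in C, while that of 9 macrophage markers was 150 to 432 in MCD and 70.3 to 126 in C, with 7 called higher. Summed levels of 8 stellate cell markers were 219 to 450 in MCD and 80.4 to 102 in C. Neutrophil markers gave 5.28 to 27.3 against 3.39 to 4.02, and endothelial markers 75.1 to 99.9 against 54.9 to 70.4. Sums for T and NK cells, for B and plasma cells and for cholangiocytes overlapped between the groups. The part of all these markers in the result was not tested.

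Under Fc-GLP-1 before PH, M+Fc-GLP-1 livers had 5 members called lower than C+Fc-GLP-1 (Nags, Afmid, Kynu, Haao and Acmsd), beside 5.29% of all genes, and 2 higher (Got1 and Slc38a4), beside 5.32%. The member median was -0.12, no hepatocyte marker of 15 was called and of 9 macrophage markers Clec4f alone was, lower. After PH the same pair of groups differed in 9 members. Otc, Afmid, Kmo, Haao and Acmsd were lower, beside 6.6% of all genes, and Gpt, Tat, Sds and Sdsl were higher, beside 6.46%. Centring on the array median instead gave splits of 1 higher and 5 lower in MCD against C before PH, 1 and 9 in the treated pair before PH, and 1 and 6 in the treated pair after PH. In that order the member medians were then -0.12, -0.39 and -0.05, beside 0.28, -0.25 and -0.07 over all genes. MCD against C after PH had 10 members called lower (Otc, Agxt, Hgd, Afmid, Kynu, Haao, Acmsd, Uroc1, Amdhd1 and Ivd; 5.96% of all genes) and 2 higher (Tat and Bckdk; 6.52%), with a member median of -0.49. There the summed level of 7 neutrophil markers was 61.3 to 203 in MCD and 9.27 to 35 in C, with Camp, Ltf, Retnlg, S100a8 and S100a9 called higher, and no hepatocyte or macrophage marker was called; the part of the neutrophil markers was not tested. Without the 3 low arrays that comparison had 18 lower and 1 higher, and leaving out C replicate 1 alone gave 17 calls. The treated pair after PH then had 5 lower and 1 higher, Sds. Shares of all genes called without these arrays are not given, so a change in all genes cannot be told from a change in the members.

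These 4 diet comparisons share no array, and their calls are set side by side. All groups were fitted together, so the comparisons share the variance estimate of each gene and their calls are not independent. Afmid and Haao were called lower in 4 of 4, Otc and Acmsd in 3, and 4 members in 2. A further 10 were called lower in 1. Of the 38, 14 were negative in all 4 comparisons, 3 were positive in all 4 and 14 were called in none. The matching counts over all genes are not given. Recurrence among the members therefore cannot be told from recurrence among all genes.

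**Figure D2:**
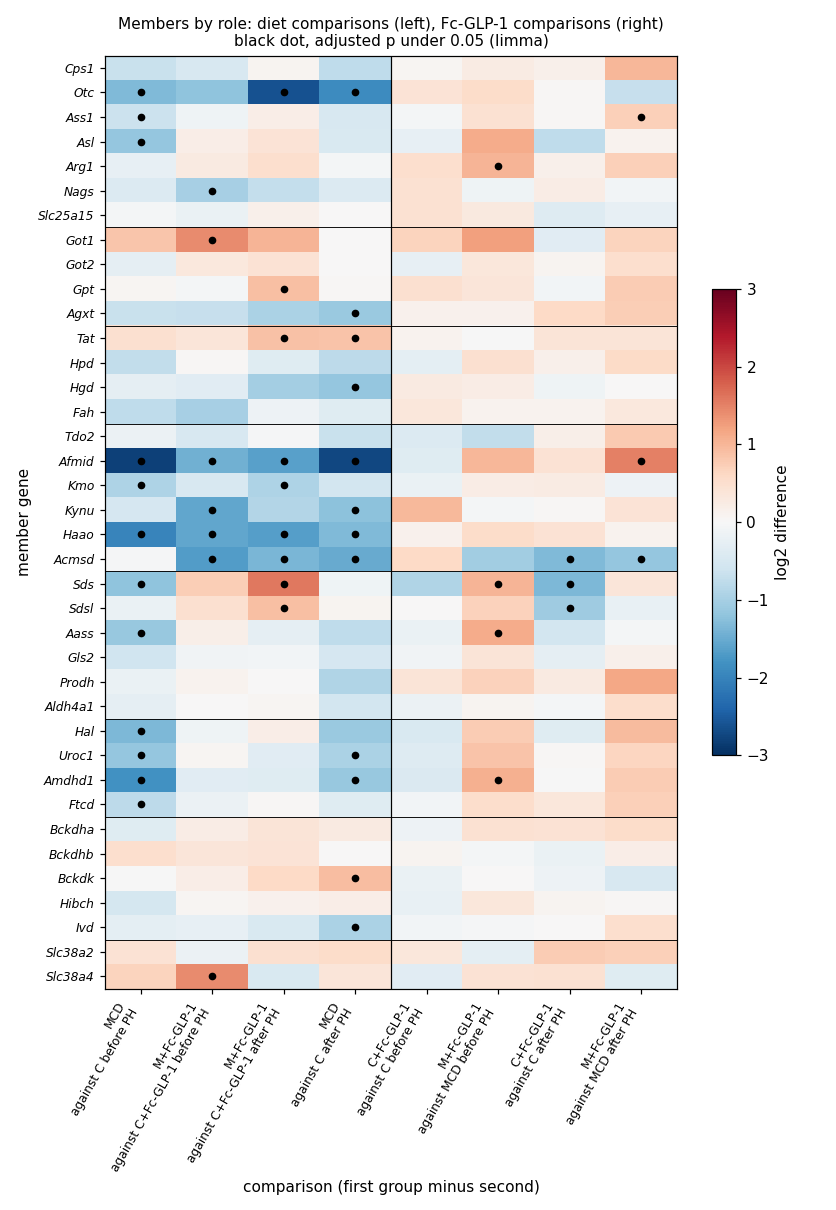
Log2 difference of each of the 38 members (rows, by role) in the 4 diet comparisons and the 4 Fc-GLP-1 comparisons (columns, first group minus second); black dots mark an adjusted p under 0.05. The kynurenine genes Afmid and Haao are dotted in all 4 diet columns, the 4 histidine genes in the first, and no member is dotted in C+Fc-GLP-1 against C before PH.

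Among the members, the kynurenine route held the calls that recurred most. Tdo2 oxidises tryptophan, Afmid hydrolyses the product to kynurenine, Kmo hydroxylates it, Kynu cleaves the result and Haao opens the ring toward quinolinate and NAD+, from which Acmsd diverts the intermediate. All 6 were negative in each of the 4 diet comparisons, with 3 called lower in MCD against C before PH and 4 in each of the others. The promoters of Afmid and Haao are shown because these genes were called in all 4 diet comparisons. The RefSeq sequences (GRCm38.p6) span 150 bases before to 20 after an annotated start, 5′ to 3′ on the gene's own strand, with capitals on matches to the motifs described further on. Both windows lie inside the genes as annotated (Afmid 117825503 to 117839908, Haao 83831348 to 83848981), so their starts are not the outermost ones.
Afmid (chr11:117825769-117825938, plus strand): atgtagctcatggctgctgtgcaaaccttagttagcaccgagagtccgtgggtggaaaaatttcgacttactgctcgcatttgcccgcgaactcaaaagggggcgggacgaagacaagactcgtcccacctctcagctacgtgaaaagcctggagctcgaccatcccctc
Haao (chr17:83846771-83846940, minus strand): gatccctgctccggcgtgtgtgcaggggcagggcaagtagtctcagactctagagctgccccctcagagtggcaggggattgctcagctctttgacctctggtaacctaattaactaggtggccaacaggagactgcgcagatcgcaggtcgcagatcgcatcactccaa

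Afmid, the formamidase of the second step, read 4.36, 4.29, 4.25 and 4.24 in C before PH, and 1.59, 0.84, 1.93 and 1.56 in MCD. Under Fc-GLP-1 it read 4.12, 3.96, 3.36 and 4.23 on chow and 3.09, 2.26, 2.13 and 2.46 on MCD. Every MCD-fed mouse lay below every chow-fed mouse of its slide. The difference before PH was -2.80 ± 0.34 (6.98-fold lower, adjusted p = 1.19e-06, limma) with saline and -1.43 ± 0.34 (2.70-fold lower, adjusted p = 0.00587, limma) with Fc-GLP-1. The test of whether these 2 diet effects differ gave 1.37 ± 0.48 (adjusted p = 0.0832, limma), which missed the threshold. After PH Afmid read 2.75, 3.96, 3.70 and 3.61 in C, -0.53, 0.78, 1.54 and 1.32 in MCD, 3.5, 3.74, 4.17 and 4.36 in C+Fc-GLP-1, and 2.70, 2.08, 2.26 and 2.16 in M+Fc-GLP-1. The 2 diets did not overlap within either treatment. The differences were -2.73 ± 0.34 with saline and -1.64 ± 0.34 with Fc-GLP-1. All 4 diet calls of Afmid held under every alternative tried, leaving out each array included.

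Haao, the dioxygenase that opens 3-hydroxyanthranilate, read 8.88, 8.32, 8.19 and 8.96 in C before PH and 6.66, 6.51, 6.96 and 6.31 in MCD. In C+Fc-GLP-1 the 3 arrays that measured it read 8.87, 8.60 and 8.64, a 4th being left out for an uneven spot, and M+Fc-GLP-1 read 7.14, 6.76, 7.45 and 7.23. The diets were apart by more than 1 log2 unit in both treatments, with differences of -1.98 ± 0.29 and -1.56 ± 0.32 (adjusted p = 1.94e-05 and 0.00146, limma). After PH the values were 7.13, 8.30, 8.20 and 7.92 in C, 6.27, 6.85, 6.74 and 6.4 in MCD, 7.67, 8.14, 8.63 and 8.84 in C+Fc-GLP-1, and 7.22, 6.69, 6.88 and 5.86 in M+Fc-GLP-1. No MCD value reached a chow value of the same treatment, and the differences were -1.33 ± 0.29 and -1.66 ± 0.29. These 4 calls also held under every alternative.

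Acmsd, which commits the intermediate to full oxidation rather than NAD+ synthesis, showed another pattern. Before PH it read 0.46, 0.33, 1.34 and 0.68 in C and 0.84, 1.10, 0.97 and -0.20 in MCD, which overlap (difference -0.03 ± 0.34). With Fc-GLP-1 it read 1.53, 2.03, 1.19 and 0.42 on chow and -1.0, 0.59, -0.35 and -0.73 on MCD, where only the highest MCD and the lowest chow array cross. That difference was -1.67 ± 0.34 (3.17-fold lower, adjusted p = 0.00146, limma). After PH Acmsd read 1.87, 2.45, 1.85 and 2.66 in C, 0.51, 1.0, 0.62 and 0.61 in MCD, 0.61, 1.48, 0.66 and 0.75 in C+Fc-GLP-1, and -0.35, -0.35, -0.71 and -0.51 in M+Fc-GLP-1. C stood above the other 3 groups and M+Fc-GLP-1 below them, without overlap. The diet differences after PH were -1.52 ± 0.34 with saline and -1.36 ± 0.34 with Fc-GLP-1; the latter lost its call under quantile normalization (adjusted p = 0.13, limma).

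Kmo, the flavin monooxygenase of the route, was lower in MCD than in C before PH (5.71 to 6.20 against 6.54 to 7.16, difference -0.92 ± 0.26) and in M+Fc-GLP-1 than in C+Fc-GLP-1 after PH (5.14 to 6.26 against 5.92 to 7.04, -0.93 ± 0.26). A further Kmo probe gave -1.26 and -0.45 in these comparisons, and only the former passed. Kynu, the kynureninase, read 2.25 to 3.02 in M+Fc-GLP-1 and 3.90 to 4.27 in C+Fc-GLP-1 before PH (-1.55 ± 0.32), and after PH 1.47 to 2.5 in MCD and 2.5 to 3.63 in C (-1.24 ± 0.32). Its further probe passed in both, and also in the treated pair after PH (-1.18), where the used probe gave -0.87. Tdo2, the entry enzyme, was called in none of 15 comparisons, with group means from 4.12 to 5.23. Its spread within groups was the widest of the members, at 0.751 log2 units against a median of 0.464 over all genes, so modest changes could not be resolved.

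**Figure D3:**
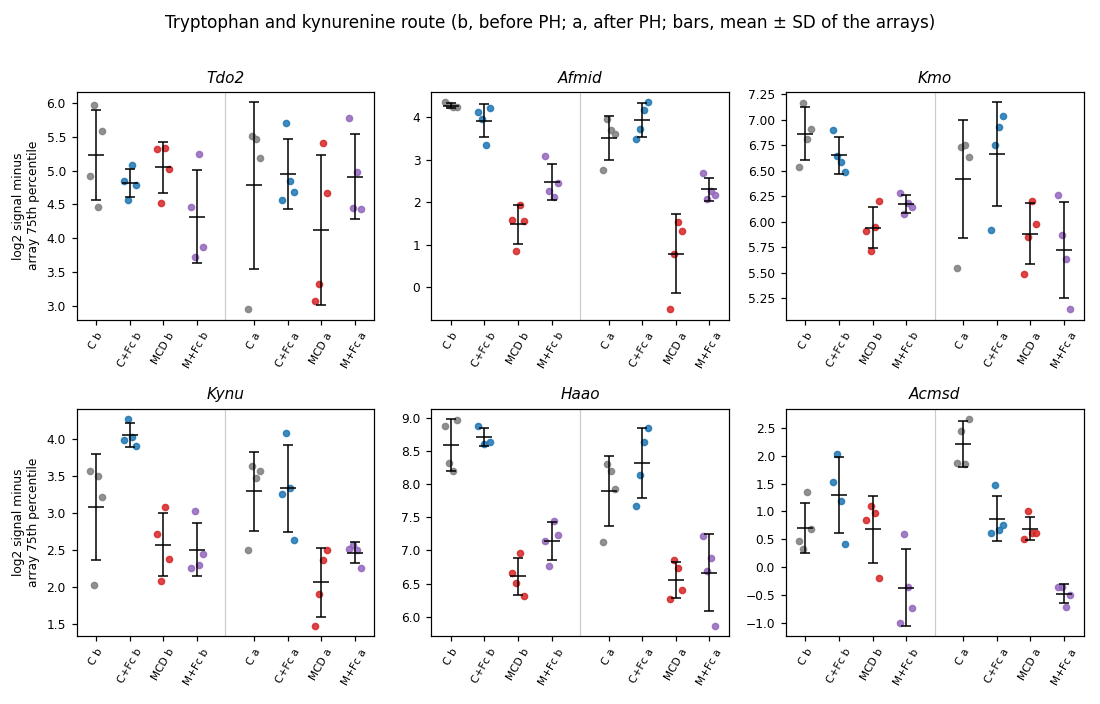
Levels (log2 intensity minus the array's 75th percentile) of the 6 kynurenine route genes, 1 panel a gene, with a point for each array and bars at the mean ± SD of each of 8 groups, before PH on the left of each panel and after PH on the right. Afmid and Haao are lower on MCD in every pair of groups, while Acmsd is lowest in M+Fc-GLP-1 at both times.

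Histidine is degraded by Hal to urocanate, by Uroc1 to imidazolonepropionate, by Amdhd1 to formiminoglutamate and by Ftcd, which hands the formimino group to tetrahydrofolate. All 4 were lower in MCD than in C before PH, the one set in which every gene was called. Their promoters are printed for that reason, in the same window and build. The starts used for Uroc1 and Amdhd1 also lie inside the annotated genes (90333239 to 90364551 and 93523338 to 93540111).
Hal (chr10:93488618-93488787, plus strand): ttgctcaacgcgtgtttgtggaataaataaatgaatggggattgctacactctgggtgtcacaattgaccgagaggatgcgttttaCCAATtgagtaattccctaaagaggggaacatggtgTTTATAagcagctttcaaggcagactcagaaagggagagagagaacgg
Uroc1 (chr6:90333139-90333308, plus strand): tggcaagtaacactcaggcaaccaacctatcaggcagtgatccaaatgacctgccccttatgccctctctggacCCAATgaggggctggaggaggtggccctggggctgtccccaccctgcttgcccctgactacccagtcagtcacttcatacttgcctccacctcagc
Amdhd1 (chr10:93540014-93540183, minus strand): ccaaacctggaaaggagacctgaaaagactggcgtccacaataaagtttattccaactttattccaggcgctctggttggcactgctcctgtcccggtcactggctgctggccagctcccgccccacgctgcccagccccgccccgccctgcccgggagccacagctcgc
Ftcd (chr10:76575498-76575667, plus strand): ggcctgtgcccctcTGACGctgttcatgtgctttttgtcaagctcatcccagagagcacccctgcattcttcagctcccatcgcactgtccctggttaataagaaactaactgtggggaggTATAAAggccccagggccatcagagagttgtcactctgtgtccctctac

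Amdhd1 changed most. It read 5.79, 6.42, 6.15 and 6.30 in C and 4.24, 4.14, 4.67 and 4.34 in MCD before PH, with more than 1 log2 unit between the groups. The difference was -1.82 ± 0.27 (3.53-fold lower, adjusted p = 1.55e-05, limma), and held under every alternative. With Fc-GLP-1 the 2 diets lay close, at 6.11, 5.94, 5.27 and 5.62 on chow and 5.55, 5.16, 5.36 and 5.55 on MCD (-0.33 ± 0.27, not called). The change of the diet effect was 1.49 ± 0.38 (adjusted p = 0.0214, limma) and its call was lost when arrays were centred on their median. After PH Amdhd1 read 4.41, 5.32, 5.68 and 5.28 in C, 3.91, 4.06, 3.81 and 4.34 in MCD, 4.32, 5.36, 5.6 and 5.36 in C+Fc-GLP-1, and 4.98, 4.66, 5.09 and 4.4 in M+Fc-GLP-1. Again the saline groups did not overlap (-1.14 ± 0.27, adjusted p = 0.0049, limma) and the treated ones did (-0.37 ± 0.27).

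Hal, the lyase of the first step, read 6.93 to 7.36 in C and 5.56 to 6.08 in MCD before PH (-1.34 ± 0.39), and a further Hal probe gave -1.5 and was called too. Uroc1, the urocanase, read 6.41 to 7.17 in C and 5.16 to 5.86 in MCD (-1.16 ± 0.30). Ftcd read 8.18 to 9.22 in C and 7.63 to 8.05 in MCD (-0.78 ± 0.25). None of these pairs of ranges overlapped. The calls of Uroc1 and Ftcd were lost under quantile normalization and in the authors' normalized values, and that of Hal when arrays were centred on their median. In all, the Ftcd call was lost under 4 of 9 alternatives, with -0.06 at the smallest, and in 4 of 8 fits without 1 array. After PH, Uroc1 was also lower in MCD than C (5.12 to 5.56 against 5.91 to 6.74, -0.95 ± 0.30), a call lost in 7 of 8 fits without 1 array. Hal gave -1.11 ± 0.39 with an adjusted p of 0.0565 (limma). Without the 3 low arrays Hal was also called (-1.37 ± 0.28, adjusted p = 0.00108, limma). In the 2 treated pairs no histidine gene was called.

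Sds, the serine dehydratase that makes pyruvate and is a classical target of glucagon, was the 1 member with diet calls in both directions. Before PH it read 7.18, 5.65, 5.50 and 5.54 in C, 4.4, 5.21, 4.65 and 4.82 in MCD, 5.42, 4.54, 4.99 and 5.28 in C+Fc-GLP-1, and 5.62, 6.11, 5.88 and 5.56 in M+Fc-GLP-1. MCD lay below C, whereas M+Fc-GLP-1 lay above C+Fc-GLP-1, without overlap in either pair. The diet differences were -1.20 ± 0.30 (called) with saline, or -0.79 without C replicate 1, whose 7.18 stood far above the other 3 arrays (adjusted p = 0.0306, limma), and 0.73 ± 0.30 (adjusted p = 0.117, limma) with Fc-GLP-1, and their difference was 1.93 ± 0.43 (adjusted p = 0.0102, limma). The latter held under every alternative for the used probe, but a further Sds probe, well above background on 25 arrays, gave 0.99 (adjusted p = 0.347, limma) and, for MCD against C before PH, -0.31. After PH Sds read 5.96, 5.76, 5.90 and 5.38 in C, 5.52, 5.57, 6.0 and 5.39 in MCD, 3.90, 4.70, 4.35 and 4.70 in C+Fc-GLP-1, and 6.58, 5.57, 5.87 and 5.94 in M+Fc-GLP-1. C+Fc-GLP-1 stood below the other 3 groups. The treated pair differed by 1.58 ± 0.30 (2.98-fold higher on MCD, adjusted p = 0.00059, limma), with 1.62 by the further probe, and C and MCD by -0.13 ± 0.30.

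Sdsl, a serine dehydratase paralogue, was also low in C+Fc-GLP-1 after PH, at 4.05, 4.10, 4.38 and 4.19 against 5.53, 4.98, 4.85 and 4.98 in M+Fc-GLP-1 (0.90 ± 0.27). Aass, the bifunctional enzyme that opens lysine breakdown, read 7.40, 7.33, 7.47 and 7.66 in C and 6.11, 5.98, 6.83 and 6.37 in MCD before PH (-1.14 ± 0.28). With Fc-GLP-1 it read 6.61 to 7.93 on chow and 7.13 to 7.88 on MCD, so that the diet difference was no longer seen (0.18 ± 0.28). The interaction was 1.32 ± 0.39 (adjusted p = 0.0433, limma), lost under 5 of the 9 alternatives other than leaving out an array. The liver glutaminase Gls2 and the proline enzymes Prodh and Aldh4a1 were called in no comparison of the 15. Gls2, Prodh and Aldh4a1 were called lower in MCD against C after PH only without the 3 low arrays (-0.81 ± 0.21, -1.24 ± 0.41 and -0.71 ± 0.19). Those arrays were picked by the members' own values.

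**Figure D4:**
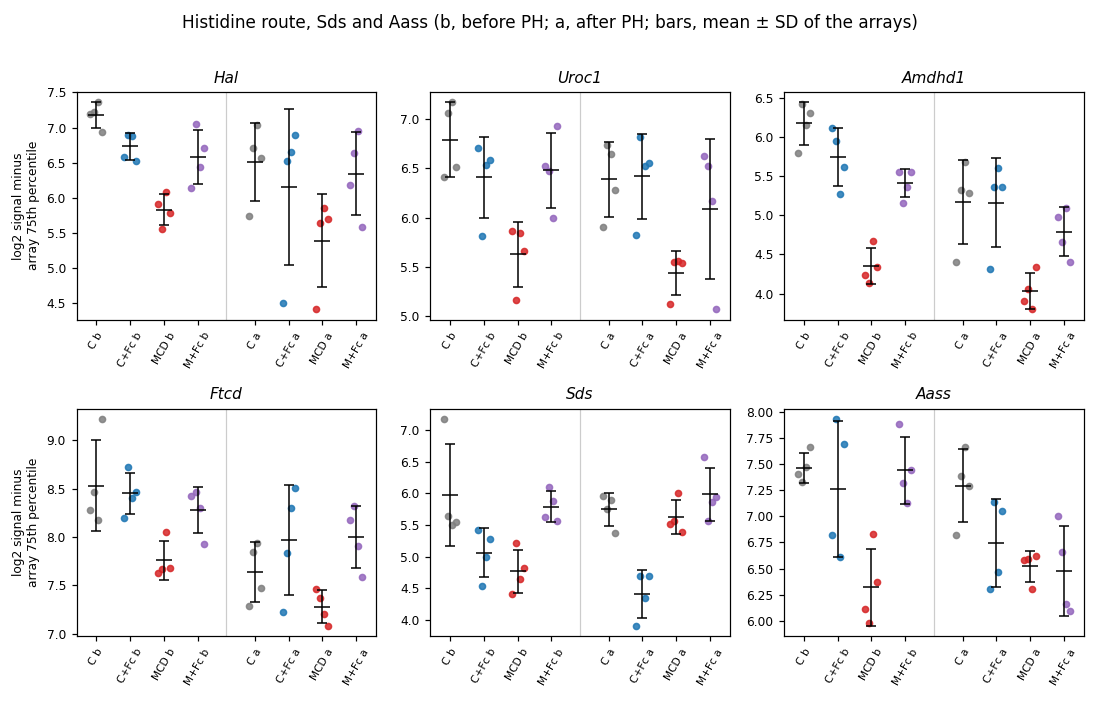
Levels (log2 intensity minus the array's 75th percentile) of the 4 histidine genes, Sds and Aass, with a point for each array and bars at the mean ± SD of each group. Before PH all 6 are lower in MCD than in C, and Sds in C+Fc-GLP-1 after PH is below every other group of that time.

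In the urea cycle, Otc joins carbamoyl phosphate to ornithine, Ass1 and Asl build arginine and Arg1 releases urea. Cps1 supplies the carbamoyl phosphate, Nags makes its activator and Slc25a15 carries ornithine into mitochondria. Before PH all 7 were negative in MCD against C, with a median of -0.64, and Otc, Ass1 and Asl were called. Otc read 5.36, 5.93, 6.39 and 6.43 in C and 4.39, 4.50, 5.27 and 4.61 in MCD, the groups nearly touching (-1.33 ± 0.42, adjusted p = 0.0189, limma). That call was lost under 1 of 9 alternatives and in 3 of 8 fits without 1 array. With Fc-GLP-1 Otc read 5.32, 7.20, 6.11 and 7.15 on chow and 5.51, 5.55, 4.87 and 5.04 on MCD (-1.20 ± 0.42, adjusted p = 0.0614, limma). After PH the gap was wide, at 5.64, 6.80, 6.85 and 6.13 in C, 4.62, 4.44, 4.17 and 4.66 in MCD, 5.43, 6.69, 6.83 and 6.63 in C+Fc-GLP-1, and 3.92, 4.44, 4.33 and 2.38 in M+Fc-GLP-1. No MCD-fed liver reached a chow-fed one. The differences were -1.88 ± 0.42 (adjusted p = 0.00316, limma) with saline and -2.62 ± 0.42 (6.17-fold lower, adjusted p = 6.8e-05, limma) with Fc-GLP-1. The lowest value, 2.38, was on the low array of M+Fc-GLP-1, and without the 3 low arrays the latter difference was -2.48 ± 0.38. A further Otc probe gave -1.85 and -1.73, called in both.

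Ass1, the argininosuccinate synthetase, averaged 9.72 in C (9.57 at the lowest) and read 8.94 to 9.21 in MCD before PH (-0.64 ± 0.22), and its further probe was also called (-0.83). The call of the used probe was lost under 3 of 9 alternatives, with -0.30 at the smallest, and in 4 of 8 fits without 1 array. Asl, the lyase of the next step, read 5.72 to 6.58 in C and 4.46 to 5.33 in MCD (-1.17 ± 0.34). The Asl call was lost under 3 of 9 alternatives, quantile normalization among them, and in 1 of 8 fits without 1 array. Neither gene was called in the other 3 diet comparisons, although the further Ass1 probe was called in MCD against C after PH (-0.89), where the used probe gave -0.47 ± 0.22. Nags read 2.44 to 3.97 in M+Fc-GLP-1 and 3.95 to 5.32 in C+Fc-GLP-1 before PH, but its call (-0.99 ± 0.32, adjusted p = 0.0482, limma) was lost under 7 of 9 alternatives. Cps1 was called nowhere, with diet differences of -0.67, -0.47, 0.08 and -0.77 (each ± 0.38) in the order MCD against C before PH, the treated pair before PH, the treated pair after PH, and MCD against C after PH. In the same order Arg1 gave -0.25, 0.28, 0.51 and -0.05 (each ± 0.28) and Slc25a15 -0.05, -0.21, 0.15 and 0.00 (each ± 0.45), none called.

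**Figure D5:**
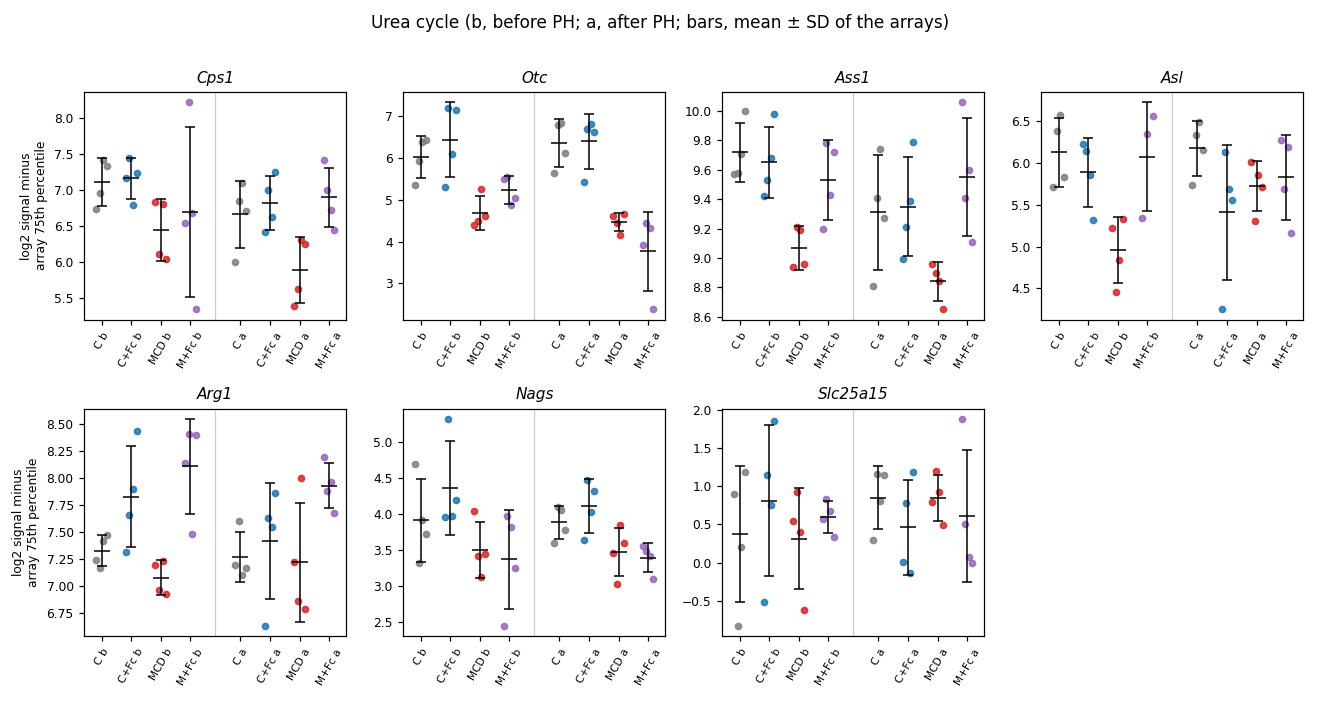
Levels (log2 intensity minus the array's 75th percentile) of the 7 urea cycle genes, with a point for each array and bars at the mean ± SD of each group. Otc after PH separates the diets completely, with all 8 MCD-fed livers at or below 4.66 and all 8 chow-fed ones at or above 5.43, while Cps1 and Arg1 overlap between diets.

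Among the transaminases, Got1, the cytosolic aspartate aminotransferase, was higher in M+Fc-GLP-1 (7.65, 7.62, 8.03 and 7.67) than in C+Fc-GLP-1 (6.57, 6.77, 5.36 and 6.64) before PH, by 1.41 ± 0.40 (adjusted p = 0.0221, limma). All 4 MCD-fed values exceeded the chow-fed ones. Gpt, the alanine aminotransferase, read 8.27 to 8.55 in M+Fc-GLP-1 and 6.64 to 8.17 in C+Fc-GLP-1 after PH (0.91 ± 0.31, adjusted p = 0.0484, limma), and gave 0.65 ± 0.34 without the 3 low arrays, not called; 6 of 8 fits without 1 array lost the call. Agxt, which detoxifies glyoxylate with alanine, was lower in MCD than in C after PH (6.53 to 7.09 against 6.99 to 8.32, -1.12 ± 0.35), a call lost under 4 of 9 alternatives and in 6 of 8 fits without 1 array. Mitochondrial Got2 was called nowhere.

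Tat, the first enzyme of tyrosine breakdown and a textbook target of glucocorticoids and glucagon, was higher on MCD after PH in both treatments. It read 6.73, 7.68, 7.94 and 7.68 in C and 8.42, 8.33, 8.01 and 8.70 in MCD after PH (0.86 ± 0.28), and 7.14, 8.62, 7.44 and 8.34 in C+Fc-GLP-1 and 8.74, 9.05, 8.49 and 8.74 in M+Fc-GLP-1 (0.87 ± 0.28). The saline groups did not overlap and the treated ones did at 1 array. Both differences were positive before PH too, at 0.48 and 0.37 (each ± 0.28), and neither was called. The calls after PH were lost without the 3 low arrays, at 0.60 ± 0.26 and 0.63 ± 0.28. The call with saline was also lost under 5 of 9 alternatives and in 6 of 8 fits without 1 array. With Fc-GLP-1 it was lost under 4 of 9 and in 5 of 8. Hgd, which opens the homogentisate ring, was lower in MCD than C after PH (4.04 to 5.0 against 4.53 to 6.20, -1.17 ± 0.39, adjusted p = 0.0473, limma), a call lost under 6 of 9 alternatives. Hpd and Fah, the neighbouring steps, were called nowhere; Hpd gave -0.75 ± 0.30 in MCD against C before PH with an adjusted p of 0.0636 (limma), and was called lower in MCD against C after PH without the 3 low arrays (-1.17 ± 0.25, adjusted p = 0.00189, limma).

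Of the branched chain genes, Ivd, which oxidises isovaleryl-CoA from leucine, read 4.21, 3.96, 4.48 and 4.66 in MCD and 4.78, 5.37, 5.52 and 5.39 in C after PH, a separation of -0.94 ± 0.25 (adjusted p = 0.0121, limma). Bckdk, the kinase that inactivates the branched chain ketoacid dehydrogenase, read 3.13, 2.86, 1.77 and 1.56 in MCD and 1.45, 1.71, 1.24 and 1.22 in C (0.92 ± 0.29, adjusted p = 0.033, limma). That call was lost under 5 of 9 alternatives and in 4 of 8 fits without 1 array, among them those without either of the 2 highest MCD arrays. The dehydrogenase subunits Bckdha and Bckdhb, and Hibch, which acts on valine, were called in no diet comparison.

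Of the 2 transporters of small neutral amino acids, Slc38a4 was higher in M+Fc-GLP-1 (4.76 to 6.71) than in C+Fc-GLP-1 (3.18 to 5.27) before PH, by 1.42 ± 0.46 (adjusted p = 0.0446, limma). The ranges overlapped and the call was lost under 5 of 9 alternatives. Slc38a2, which is induced in cells starved of amino acids, gave 0.44, -0.17, 0.49 and 0.54 (each ± 0.29) in the order used above for Cps1, none called.

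Fc-GLP-1 was compared with saline on each diet. Against C before PH, C+Fc-GLP-1 had no member called, where 2.22% of all genes were; 2 had an unadjusted p under 0.05, Kynu at 0.97 ± 0.32 and Sds at -0.91 ± 0.30. A further Kynu probe gave -0.16. Quantile normalization and the authors' normalized values each gave 4 calls, 1 higher and 3 lower. Against MCD before PH, M+Fc-GLP-1 had 4 members called higher (Arg1, Sds, Aass and Amdhd1; 3.75% of all genes) and none lower (2.99%), and 30 of 38 were positive, with a median of 0.38 beside 0.06 over all genes. Arg1 read 7.20, 6.96, 7.23 and 6.93 in MCD and 8.14, 8.41, 7.48 and 8.40 in M+Fc-GLP-1 (1.03 ± 0.28). Aass, Amdhd1 and Sds rose by 1.12 ± 0.28, 1.06 ± 0.27 and 1.02 ± 0.30 from the values given above. None of these 4 pairs overlapped, but leaving out MCD replicate 1 removed all 4 calls, and centring on the array median left 1 call, Acmsd, which was lower. A further Sds probe gave 0.26 (adjusted p = 0.774, limma). Over the same comparison 13 of 15 hepatocyte markers were positive, with a median of 0.33 and 1 called higher. All 9 macrophage markers were negative and 5 called lower (Cd5l, Clec4f, Csf1r, Lyz2 and Vsig4). The 7 neutrophil markers had a median of -2.12, with 2 called lower and 1 higher, and the part of these markers in the result was not tested.

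After PH, C+Fc-GLP-1 had 3 members lower than C (Acmsd, Sds and Sdsl; 0.909% of all genes) and none higher (1.34%). Acmsd gave -1.33 ± 0.34, Sds -1.34 ± 0.30 and Sdsl -1.06 ± 0.27, each without overlap of the groups. Without C+Fc-GLP-1 replicate 1, as without the 3 low arrays, none of the 3 was called. A further Sds probe gave -1.56 (adjusted p = 0.0552, limma). M+Fc-GLP-1 against MCD after PH had Ass1 (0.71 ± 0.22) and Afmid (1.52 ± 0.34) higher, where 3.99% of all genes were, and Acmsd lower (-1.17 ± 0.34), where 2.72% were. The Ass1 call was lost under 8 of 9 alternatives and in 7 of 8 fits without 1 array, and its further probe gave 0.58 (adjusted p = 0.116, limma). The Acmsd call was lost in all 8 fits without 1 array and under 3 of 9 other alternatives, with a value of -0.55 at the smallest. Without the 3 low arrays 8 were higher and none lower: Amdhd1, Aldh4a1, Afmid, Ass1, Hal, Uroc1, Agxt and Ftcd. The share of all genes called in that setting is not given. In that comparison all 15 hepatocyte markers were positive, with a median of 0.47 beside 0.45 over the members. The summed level of 7 neutrophil markers was 8.77 to 50.6 in M+Fc-GLP-1 and 61.3 to 203 in MCD, and their part in the result was not tested.

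The difference between the diet effects with and without the drug was tested directly. Before PH, where a shift shared by a slide cancels, Sds, Aass and Amdhd1 gave positive interactions (2.87% of all genes) and Acmsd a negative one, -1.64 ± 0.48 (2.92%). The Acmsd interaction was lost under 4 of 9 alternatives and in 12 of 16 fits without 1 array, that of Aass in 11 of 16. The 9 macrophage markers were negative in this test and 5 of them called (Cd5l, Clec4f, Csf1r, Lyz2 and Vsig4); their part was not tested. After PH no member was called, nor any gene (0%), although 5 members had an unadjusted p under 0.05, Sds the smallest (1.71 ± 0.43, adjusted p = 0.155, limma). For the difference of the diet effects between the 2 times under Fc-GLP-1, 0.0895% of all genes and no member were called; 3 members had an unadjusted p under 0.05, among them Otc (-1.42 ± 0.59).

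Over time, C livers 2 weeks after PH had 1 member higher than before (Acmsd; 6.23% of all genes) and 3 lower (Amdhd1, Ftcd and Bckdha; 7.98%). Acmsd rose by 1.5 ± 0.34 (2.83-fold, adjusted p = 0.00393, limma), from 0.33 to 1.34 before PH to 1.85 to 2.66 after it, under every alternative. Amdhd1 gave -1.0 ± 0.27 and Bckdha, a subunit of the branched chain ketoacid dehydrogenase, -1.06 ± 0.27 (7.44 to 8.50 before, 6.19 to 7.03 after). Ftcd gave -0.90 ± 0.25. Under quantile normalization Bckdha gave -0.04 (adjusted p = 0.941, limma) and Ftcd 0.13. Without C replicate 1 after PH, Acmsd alone was called (Amdhd1 -0.74, Ftcd -0.78 and Bckdha -0.88, with adjusted p of 0.08, 0.0696 and 0.0578, limma), while without all 3 low arrays the same differences were called, with adjusted p of 0.0359, 0.0392 and 0.0441 (limma). The member median was -0.34, and 14 of 15 hepatocyte markers were negative too, with a median of -0.43 and 2 called lower. All 9 macrophage markers were called higher after PH in C, with summed levels of 155 to 720 against 70.3 to 126, as were 3 of 7 neutrophil markers; the part of these markers in the result was not tested. No member was called over time in MCD, where 9.48% of all genes were, in C+Fc-GLP-1 (0.853%) or in M+Fc-GLP-1 (1.62%), with 9, 6 and 5 members at an unadjusted p under 0.05. Without the 3 low arrays there was likewise no call of a member over time in C+Fc-GLP-1 or M+Fc-GLP-1, nor in the interaction after PH or that of diet and time.

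Of the 38 members, 12 were called in none of the 15 comparisons: Aldh4a1, Bckdhb, Cps1, Fah, Gls2, Got2, Hibch, Hpd, Prodh, Slc25a15, Slc38a2 and Tdo2. Of 38, 15 had a within-group spread above the median over all genes of 0.464, and Kynu equalled that median as rounded. Of the 6 members with a further probe, 66 of 90 differences had the same direction by both, and 9 of the 14 calls by the used probe were made by both.

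Other genes of amino acid breakdown were read from a list of 55, of which 52 were tested. In MCD against C before PH 10 were called lower, beside 13.7% of all genes, and 3 higher, beside 12.1%, with a median of -0.39. The lowest were Csad, which makes hypotaurine from cysteine products (-2.32 ± 0.37), Ido2, a relative of the tryptophan dioxygenases (-2.26 ± 0.39), and Etnppl (-1.81 ± 0.47). Gpt2, the mitochondrial alanine aminotransferase (1.23 ± 0.33), Phykpl (0.75 ± 0.20) and Mmut (0.74) were higher. In MCD against C after PH 15 were lower (5.96% of all genes), led by Ido2 (-2.29 ± 0.39), and Gpt2 and Phykpl higher (6.52%). Ido2 was also lowest of the list in the treated pair before PH (-1.99 ± 0.39), with Csad, Acadsb and Qdpr also lower (5.29% of all genes) and Hykk higher (5.32%). After PH Ido2 was again lowest there (-2.38 ± 0.39), with Hao1, Oat, Aldh7a1 and Grhpr lower (6.6%) and Gpt2, Acat1 and Phykpl higher (6.46%). Against MCD, M+Fc-GLP-1 had higher Cdo1, which oxidises cysteine, before PH (1.22 ± 0.35) and after it (1.53 ± 0.35). In contrast, of 11 genes of amino acid synthesis 5 were higher in MCD against C before PH (Asns, Psat1, Phgdh, Aldh18a1 and Mthfd2), beside 12.1% of all genes. Shmt2 and Cbs, 2 of the 11, were lower, beside 13.7%, and the median was 0.54. These genes of synthesis, and the single markers above, were named after their values were seen.

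The receptors and gluconeogenic genes named alongside gave context. The glucagon receptor Gcgr was called in no comparison, with levels from 6.69 to 8.72, and Glp1r was dim, with group means from -4.01 to -3.07. Pck1, the gluconeogenic enzyme that draws on amino acid carbon, was higher on MCD in the treated pairs before PH (1.36 ± 0.39) and after it (1.5 ± 0.36) and in MCD against C after PH (1.11 ± 0.36). Ppargc1a, a coactivator of the fasting response, was higher on MCD in both treated pairs (1.34 ± 0.36 and 1.36 ± 0.36) and in M+Fc-GLP-1 against MCD before PH (1.64 ± 0.36). G6pc was called nowhere. Glul, glutamine synthetase of pericentral hepatocytes, was lower after PH than before it in MCD (-1.43 ± 0.39).

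Some members lie side by side in the genome (GRCm38.p6). Hal (chromosome 10, 93488768 to 93516761) is followed by Amdhd1 (93523338 to 93540111), and Sdsl (chromosome 5, 120458193 to 120472825) by Sds (120476547 to 120483932). Otc lies on chromosome X (10252230 to 10321024). Promoter windows from 250 bases before to 50 after the start were given for 30 members (34 windows) in RefSeq. Motifs were searched on both strands. The cAMP response element TGACGTCA was in 0% of member windows and 1.79% of all 32851, and its shorter form TGACG, which the full element contains, in 17.6% and 20.8%. It lies at -136 in Ftcd. The TATA box TATAAA was in 20.6% of member windows and 13.6% of all, at -28 in Hal on the opposite strand and -29 in Ftcd. CCAAT was in 44.1% and 37.4%, at -64 in Hal and -76 in Uroc1. The glucocorticoid receptor letters AGAACA was in 17.6% and 19.0%. The C/EBP letters TTGCGCAA and the HNF4 letters CAAAGTCCA were in no member window, and in 0.183% and 0.475% of all. No motif was found in the printed stretches of Afmid, Haao and Amdhd1. Windows for Gpt, Kynu, Arg1, Gls2, Cps1, Sds, Sdsl and Asl were not used here.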

How the data were processed

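Liver RNA of 32 samples was labelled with Cy3 and hybridised to Agilent SurePrint G3 mouse arrays, which the authors scanned and read with Feature Extraction 10.7.3.1. The deposited intensity of each spot (gProcessedSignal, background-subtracted by that software) was used. The authors also deposited a table of log2 values made with limma, quantile-normalized separately before and after PH, which served as an alternative within a time. Control spots and spots flagged as outliers were left out, spots of 1 probe averaged, log2 taken and the 75th percentile of each array subtracted. A probe was kept where some group had it well above background on each of its 4 arrays (29300 of 55681 probes); with 1 probe a gene, the brightest, this left 21227 genes. Haao, Asl and Slc38a4 lacked 1 array each, dropped from their fits. All 8 groups were fitted together with lmFit and eBayes (limma 3.58.1, R 4.3.3), and contrasts were adjusted by Benjamini-Hochberg; the code was tested on simulated data. Intervals of arrays rest on their number alone.

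Arrays were taken as separate mice, since no label states that livers before and after PH came from 1 animal. The study describes the samples before PH as liver taken out at the hepatectomy of the same groups. Some mice may therefore be present at both times, and the fits over time did not use such pairing. Where arrays were not separate mice, p-values measure only the spread between arrays. Probe names were those of the array's design, updated through RefSeq accessions. The 38 members, the gene lists, the motifs and the rule for naming genes were chosen with earlier results of these data known. That rule names every urea cycle member, Tat, Tdo2, Sds and both transporters, and in each comparison up to 5 called members a direction by size; others were added to account for every member. Lists are described by counts and medians, with no set test. A gene of the wider lists and a promoter are not reported here. The alternatives were normexp (offset 50) with quantile normalization, centring on the array median, a percentile restricted to well-measured probes, the authors' values, keeping dim probes, averaging the probes of a gene, fitting the compared groups alone, a replicate block, array weights and leaving out each array.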

Additional observations from a re-analysis of the deposited data

Results flagged for a closer look

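In 22 of 301 sets of 4 arrays (1 member in 1 group), the highest or lowest array stood apart, its gap to the nearest value being the share of the group's range given here; chance does this in about 1 of 20 groups. C after PH replicate 1 was lowest for Got2 (0.843), Hpd (0.832), Hgd (0.862), Tdo2 (0.870), Kmo (0.905) and Kynu (0.855). C+Fc-GLP-1 after PH replicate 1 was lowest for Otc (0.855), Gls2 (0.864) and Hal (0.845), and Acmsd had 1 high array in that group (0.838). In MCD after PH, replicate 1 was lowest for Hal (0.856) and Uroc1 (0.960), replicate 2 for Fah (0.879) and replicate 3 for Aass (0.876). In MCD before PH, Gpt had a low array (0.948) and Ftcd a high one (0.878). In C before PH, Sds had a high array (0.908) and Aldh4a1 a low one (0.834). In C+Fc-GLP-1 before PH, Nags had a high array (0.831) and Got1 a low one (0.857), and Got1 had a high array in M+Fc-GLP-1 before PH (0.873) and after it (0.832).

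For 4 members the diet effect before PH differed with Fc-GLP-1 by the interaction test: Sds (1.93), Amdhd1 (1.49), Aass (1.32) and Acmsd (-1.64).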

How the results depend on the processing

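Of 58 calls of a member in a comparison, 18 held under every alternative and 40 were lost under at least 1, with no value reversed except Ftcd in C after against before PH (0.13 under quantile normalization, adjusted p = 0.742, limma); causes were not tested. Centring on the array median shifted the median of all genes by up to 0.615, dropping the filter by up to 0.371, the percentile over well-measured probes by up to 0.152, the authors' values by up to 0.12 and quantile normalization by up to 0.119. Counts of members called moved by over 1.5 times as follows, without the share of all genes called in each setting. With centring, MCD against C before PH had 6, C+Fc-GLP-1 against C 1 before PH and 1 after it, M+Fc-GLP-1 against MCD before PH 1, C over time 2 and MCD over time 3. With quantile normalization, C+Fc-GLP-1 against C before PH had 4, MCD over time 2, C+Fc-GLP-1 over time 3 and the interaction before PH 2; the authors' values gave 4 and 2 for the first and last. Without the filter, MCD against C after PH had 7, M+Fc-GLP-1 against MCD 8 before PH and 1 after it, C+Fc-GLP-1 against C after PH 1 and the interaction 2. Fitting only the groups compared gave 0 for C+Fc-GLP-1 against C after PH, 1 for M+Fc-GLP-1 against MCD after PH, 1 for C over time and 5 for MCD over time. Array weights gave 19 for MCD against C after PH, 8 and 6 for M+Fc-GLP-1 against MCD before and after PH, and 6 for MCD over time, where the other percentile gave 1. Without the 3 low arrays, MCD against C after PH had 19, C+Fc-GLP-1 against C after PH 0 and M+Fc-GLP-1 against MCD after PH 8.

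Leaving out 1 array at a time gave 9 to 13 calls in MCD against C before PH, 5 to 8 and 6 to 9 in the treated pair before and after PH, and 6 (without MCD replicate 1) to 17 (without C replicate 1) in MCD against C after PH. C+Fc-GLP-1 against C gave 0 to 0 before PH and 0 to 2 after it, and M+Fc-GLP-1 against MCD 0 to 4 and 1 (without M+Fc-GLP-1 replicate 1) to 4. Over time the counts were 1 to 5 in C, 0 to 2 in MCD, 0 to 0 in C+Fc-GLP-1 and 0 to 2 in M+Fc-GLP-1, and the interaction before PH gave 2 (without C replicate 1) to 5. Replicate numbers are shared by all groups, and arrays of 1 number were not read as paired (mean r 0.0173 over 112 pairs). That mean runs over all pairs of groups, and pairs of 1 group before and after PH were not examined apart. It therefore cannot decide whether the livers compared over time came from the same mice. The replicate block gave 1 call in M+Fc-GLP-1 over time, against none, and moved no other count by over 1.5 times.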
